A study of Mus musculus with 6 samples.

Results

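The genes described here are 10 genes of uterine contraction: the oxytocin receptor Oxtr, the gap junction gene Gja1, the contractile and cytoskeletal genes Acta2, Myh11, Cnn1, Tagln, Des, Mylk and Actg2, and their transcriptional coactivator Myocd. They were chosen by name, and all 10 were among the 18193 genes measured, through 23 of the 34945 probe sets with a single gene symbol. The brightest probe set of each gene, by its mean over the arrays, gave the value used, and the other 13 are given beside it. RNA came from the uterus of female mice of mixed background that carried the floxed Gata2 allele (GATA2 f/f) in both groups. The labels name no recombinase, so both groups carry the allele as floxed. Ovaries were removed at 6 weeks of age. At 8 weeks the mice received sesame oil (3 arrays) or 1 mg of progesterone in 100 µl of sesame oil (3 arrays), and the uterus was taken 6 h later. The design text says that RNA was pooled from 3 mice per genotype. It does not say whether each array held its own pool, so the p-values reflect array-to-array spread that may in part be technical.

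The myometrium is the smooth muscle wall of the uterus. Its cells contract when calcium, bound to calmodulin, activates myosin light chain kinase, the product of Mylk, which phosphorylates the light chains of smooth muscle myosin. Oxytocin acts through the G protein-coupled receptor encoded by Oxtr to raise calcium, and gap junctions built from the connexin encoded by Gja1 couple the cells electrically. Progesterone is known for keeping the uterus quiescent during pregnancy, and Oxtr and Gja1 are classed as contraction-associated genes that rise toward labour. Myocardin, the product of Myocd, drives smooth muscle genes through serum response factor, which binds a DNA element called the CArG box.

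The whole uterus was sampled, and the smooth muscle markers were all above background. Of 8 markers other than the 10 genes (Myl9, Smtn, Lmod1, Synpo2, Tpm2, Cald1, Itga8 and Pcp4), none lay at or below 3.34, the highest value of the TrpnX controls. Those controls target a bacterial transcript and stand here for background. The log2 of the summed linear level of the 8 markers was 14.97 to 15.08 on the oil arrays and 14.75 to 15.02 on the progesterone arrays. Of the 8 markers, 0 passed the limma test described below (1 at an unadjusted p under 0.05). Other cell types varied between arrays. The summed neutrophil markers (6 measured) were 6.55 and 6.84 on oil replicates 2 and 1 and 6.78 on progesterone replicate 1, and 12.72, 12.96 and 13.32 on oil replicate 3 and progesterone replicates 2 and 3. The summed adipocyte markers (5 measured) were 8.98 to 10.03 with oil and 6.91 to 9.07 with progesterone, and those of epithelium (7 measured) 13.73 to 13.91 and 13.41 to 14.05. Of the epithelial markers Cldn3 alone passed, as higher (log2 difference 1.15, limma adjusted p = 0.00624), while the median difference of the 7 was -0.31. The summed endothelial markers (7 measured) did not overlap, at 11.54 to 12.02 with oil and 11.23 to 11.34 with progesterone, and 1 of 7, Cldn5, passed as lower. Of 8 stromal markers Hoxa11 and Hand2 passed as higher and Lum as lower, and their sum was 15.25 to 15.40 and 15.03 to 15.45. Among 5 liver markers measured, Alb was at 8.71 on oil replicate 3 and between 3.96 and 4.29 on the other 5 arrays. Apoa1, Apoa2 and Fgb were also highest on oil replicate 3. Ttr instead passed as higher with progesterone, at 5.61, 4.81 and 7.44 with oil and 8.63, 8.67 and 8.38 with progesterone. The summed liver markers were 6.93, 6.56 and 9.72 with oil and 8.86, 8.88 and 8.66 with progesterone. In bulk tissue, fewer cells of a type and less RNA per cell cannot be told apart.

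Promoters of 6 of the 10 genes (Oxtr, Gja1, Acta2, Cnn1, Des and Mylk) were found in a RefSeq table for GRCm38.p6 that spans 250 bases before to 50 bases after a start site. The windows of Mylk and Oxtr lie wholly inside their genes and not at the outer end. Mylk spans 34745199 to 35002436 on chromosome 16, with its window at 34784700 to 34784999. Oxtr spans 112473683 to 112491035 on chromosome 6, with its window at 112489776 to 112490075. The 3 shown are those that hold a match to the binding motifs of AP-1 or serum response factor, and they were chosen after the search. Capitals mark TGANTCA, a motif of the AP-1 factors, in Gja1 (plus strand, chr10:56377050-56377349) and Mylk (plus strand, chr16:34784700-34784999), and CArG-like boxes in Acta2 (minus strand, chr19:34255324-34255623). All are written 5′ to 3′ on the strand of the gene.
Gja1: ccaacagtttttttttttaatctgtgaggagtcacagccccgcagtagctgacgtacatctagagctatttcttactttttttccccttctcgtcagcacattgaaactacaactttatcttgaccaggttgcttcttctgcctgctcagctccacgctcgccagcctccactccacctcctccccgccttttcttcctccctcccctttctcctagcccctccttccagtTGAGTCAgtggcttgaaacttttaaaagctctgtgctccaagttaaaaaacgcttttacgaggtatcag
Mylk: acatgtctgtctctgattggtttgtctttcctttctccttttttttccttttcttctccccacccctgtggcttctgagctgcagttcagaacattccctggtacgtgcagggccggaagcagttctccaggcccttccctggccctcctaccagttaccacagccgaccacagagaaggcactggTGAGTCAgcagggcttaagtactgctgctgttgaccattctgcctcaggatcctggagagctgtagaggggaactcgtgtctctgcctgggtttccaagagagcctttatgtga
Acta2: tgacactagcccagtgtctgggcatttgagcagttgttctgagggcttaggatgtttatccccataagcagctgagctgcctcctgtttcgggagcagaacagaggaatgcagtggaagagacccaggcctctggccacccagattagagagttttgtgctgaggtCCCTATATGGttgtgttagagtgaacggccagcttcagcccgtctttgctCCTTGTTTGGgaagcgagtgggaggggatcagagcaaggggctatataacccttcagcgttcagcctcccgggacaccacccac
TGANTCA, which reads the same on both strands, was in 2 of the 6 promoters and in 7.81% of all 32851 promoters of the table. The match began at base -19 in Gja1 and at base -64 in Mylk, counted back from the start site. The CArG box in its strict form was in 0 of the 6 and in 1.63% of all promoters. A looser form, in which 1 of the central 6 bases is C or G, was tried after the strict form had given no match. It was in Acta2 alone among the 6, at bases -84 and -34, and in 8.5% of all promoters. TGTTCT, the core of the site bound by progesterone and glucocorticoid receptors, was searched on both strands and lay in Acta2 and Mylk (19% of all promoters). CATTCC, the motif of TEAD factors, lay in the same 2 genes (14.7% of all promoters), and in Mylk its match shares 2 bases with that of TGTTCT. The TATA motif TATAAA was in 0 of the 6 and in 13.6% of all promoters. Oxtr, Cnn1 and Des had no match to any of these motifs in this window. These matches describe letters and do not show binding.

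None of the 10 genes passed the test of progesterone against oil (limma on log2 values, Benjamini-Hochberg adjusted p under 0.05 over all 18193 genes), where 11.7% of all genes passed: 0 of 10 were higher, beside 5.92% of all genes, and 0 of 10 lower, beside 5.83%. At an unadjusted p under 0.05 there were 2 of 10 (Gja1 and Myh11), beside 26% of all genes. The median log2 difference of the 10 genes was -0.01 and that of all genes -0.02, and the median absolute difference was 0.08 against 0.16. The differences of 6 genes lay within 0.1 log2 units of 0. The arrays of the 2 groups did not overlap for 2 of 10 genes, Myh11 and Tagln, beside 30.4% of all genes. The median standard error over the 10 genes was 0.127 log2 units. The main fit had no block for the replicate numbers that the 2 groups share. With that block 1 of 10 passed, Gja1, as higher (limma adjusted p = 0.0365), beside 16.1% of all genes. The widest differences were those of Gja1, upward, and of Oxtr and Myh11, downward, and leaving out 1 array moved each of them across the threshold.

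**Figure D1:**
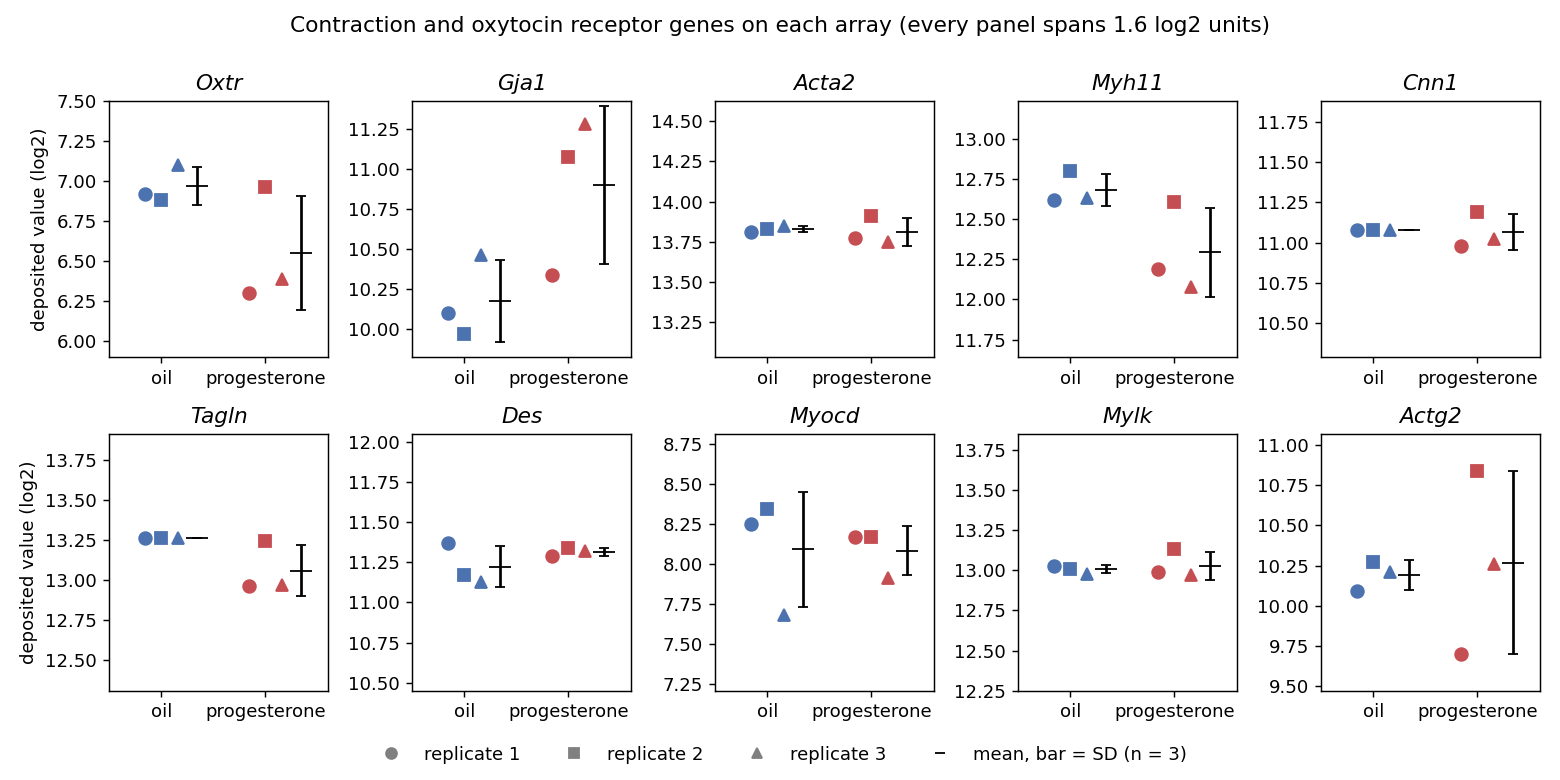
Deposited log2 value of each gene on each of the 6 arrays (blue, oil; red, progesterone; the symbol gives the replicate number), with the mean and SD of each group (n = 3). Every panel spans the same range, so the tight values of Acta2, Cnn1 and Mylk can be set beside the wide progesterone values of Actg2, Gja1 and Oxtr.

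Oxtr, which encodes the receptor for oxytocin, was at 6.92, 6.88 and 7.10 on oil replicates 1 to 3 and at 6.30, 6.96 and 6.39 on progesterone replicates 1 to 3. Progesterone replicates 1 and 3 lay below all oil arrays, while replicate 2 lay among them. The log2 difference was -0.42 ± 0.181 (SE, n = 3 per group), or 1.33-fold, with a limma adjusted p of 0.201 and a 95% confidence interval from -0.84 to 0.01. Without progesterone replicate 2 it was -0.62 and passed (limma adjusted p = 0.0398), in a fit where 5.49% of all genes passed. The dimmer of the 2 Oxtr probe sets gave 4.13, 4.29 and 4.33 with oil and 4.38, 4.28 and 4.44 with progesterone. Its log2 difference was 0.12, opposite in sign to that of the brighter one, and its interval of -0.12 to 0.35 included 0. The mean of both probe sets gave -0.15. The gap between the 2 probe sets was 2.72 with oil and 2.18 with progesterone (exact permutation over arrays, two-sided, p = 0.2, where 3 arrays against 3 cannot give less than 0.1). The pair was compared because its signs differed on these same arrays, so this test cannot decide whether the probe sets disagree.

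Gja1, which encodes the main connexin of muscle gap junctions in the labouring uterus, was at 10.10, 9.97 and 10.46 on the oil arrays and at 10.34, 11.07 and 11.28 on the progesterone arrays. Progesterone replicates 2 and 3 lay above all oil arrays, and replicate 1 lay below oil replicate 3. The log2 difference was 0.72 ± 0.252 (SE, n = 3 per group), or 1.65-fold, with a limma adjusted p of 0.119 and a 95% confidence interval from 0.13 to 1.31. Between arrays of the same replicate number the differences were 0.24, 1.10 and 0.82, higher in 3 of 3. With the replicate number as a block, limma gave an adjusted p of 0.0365, and Gja1 was then the only one of the 10 genes that passed (16.1% of all genes passed in that fit). Without progesterone replicate 1 the difference was 1.00 (limma adjusted p = 0.0223, where 9.65% of all genes passed).

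Gja1 has 6 probe sets, and all 6 were higher with progesterone, by 0.32 to 0.96 log2 units. Tested one by one over all 34945 probe sets, of which 8.99% passed, none of the 6 did: the limma adjusted p ran from 0.0515 to 0.172, and the lowest belonged to a probe set that went from a mean of 8.50 to 9.46 without overlap between the groups. The 6 probe sets read the same RNA of the same arrays and are not independent. In 4 of the 6 the groups did not overlap, and the brightest was not among those 4. The share of all probe sets without overlap is not given here, and that of all genes was 30.4%. All 6 were lowest, among progesterone arrays, on replicate 1. The names of 4 probe sets end in _x_at, Affymetrix's mark for probes that can match other sequences. The remaining 2, without that mark, differed by 0.69 and 0.32.

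**Figure D2:**
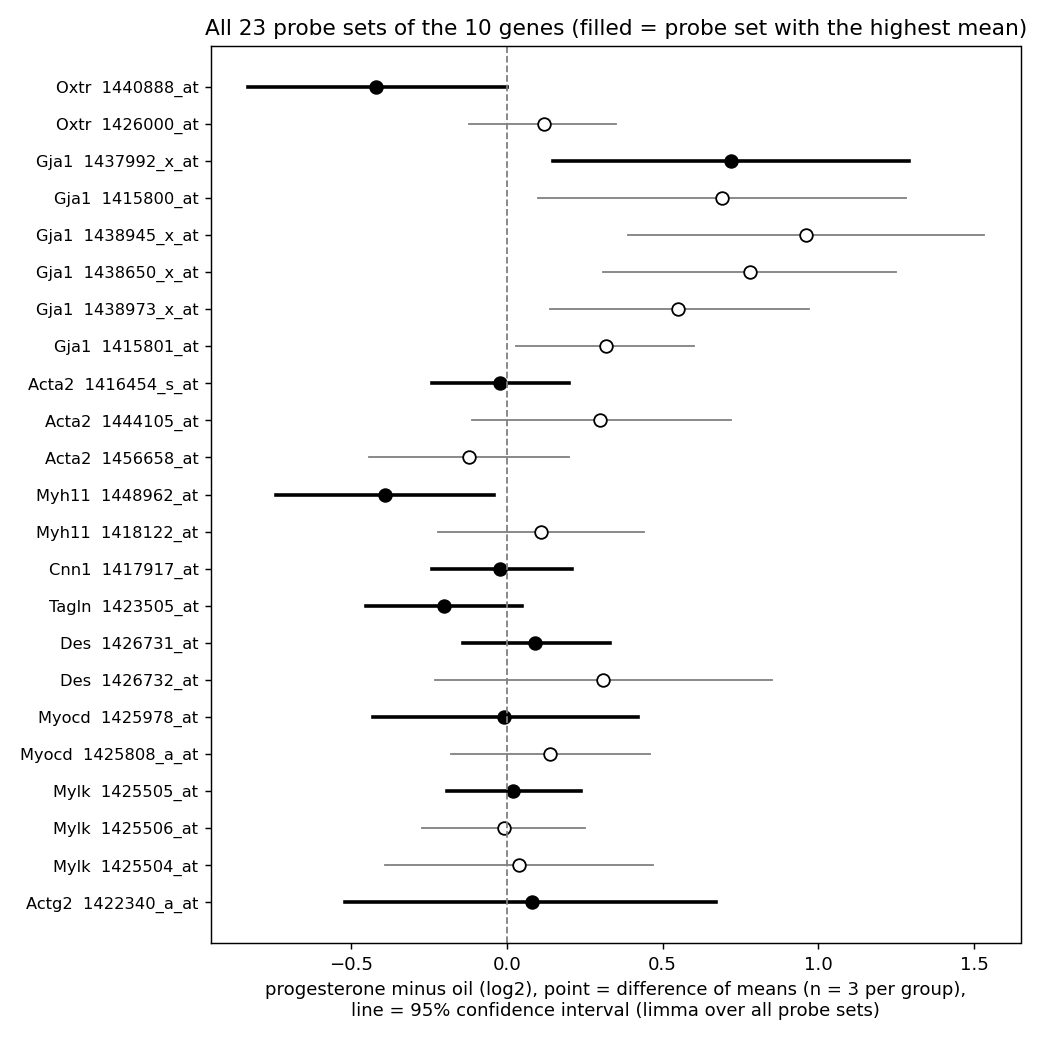
Difference of progesterone minus oil on the log2 scale (horizontal axis) for each of the 23 probe sets, with 95% confidence intervals from limma over all probe sets; filled points are the probe sets used for the genes and open points the others. The 6 Gja1 probe sets lie to the right of 0, and the pairs of Oxtr and Myh11 lie on opposite sides of it.

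Of the 7 structural genes of the contractile apparatus and cytoskeleton, 0 passed. Acta2, which encodes smooth muscle alpha-actin, was at 13.81, 13.83 and 13.85 with oil and 13.77, 13.91 and 13.75 with progesterone. The groups overlapped, and the log2 difference of -0.02 had a 95% confidence interval from -0.23 to 0.19, so changes beyond 1.17-fold downward or 1.14-fold upward lay outside it. The used Acta2 probe set carries the suffix _s_at, Affymetrix's mark for probes shared between transcripts, and actin genes are closely similar in sequence. Its other 2 probe sets differed by 0.30 and -0.12, with intervals that included 0.

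Actg2 encodes gamma-actin of visceral smooth muscle. It was at 10.09, 10.27 and 10.21 with oil, and at 9.70, 10.84 and 10.26 with progesterone. The progesterone arrays spread over 1.14 log2 units and enclosed all oil values, which spread over 0.18. The log2 difference was 0.08, with an interval from -0.54 to 0.69, the widest among the structural genes.

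Myh11, the heavy chain of smooth muscle myosin, was at 12.62, 12.80 and 12.63 with oil and at 12.19, 12.61 and 12.08 with progesterone. All progesterone arrays lay below all oil arrays, though progesterone replicate 2, at 12.61, was next to oil replicate 1, at 12.62. The log2 difference was -0.39 ± 0.151 (SE, n = 3 per group), or 1.31-fold, with a limma adjusted p of 0.153. It was 0.0573 with the replicate block, and without progesterone replicate 2 the difference was -0.55 and passed (limma adjusted p = 0.0493). The dimmer Myh11 probe set did not follow: its values were 8.59, 8.43 and 8.19 with oil and 8.60, 8.64 and 8.30 with progesterone, a log2 difference of 0.11. The mean of both probe sets gave -0.14. The gap between the 2 probe sets went from 4.28 with oil to 3.78 with progesterone (exact permutation p = 0.1, the smallest that 3 against 3 arrays can give, and 0.333 adjusted over the 5 probe set pairs of opposite sign that were compared). The pairs were picked by their signs on these same arrays, and no pair could fall below 0.1. This test therefore cannot decide whether the probe sets disagree.

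Mylk, the kinase of the myosin light chains, was at 13.03, 13.01 and 12.98 with oil and 12.99, 13.13 and 12.97 with progesterone, a difference of 0.02 with an interval from -0.18 to 0.23. Its other 2 probe sets differed by -0.01 and 0.04. Cnn1 encodes calponin, an actin-binding protein that damps myosin activity. It was at 11.08 on all 3 oil arrays and at 10.98, 11.19 and 11.02 with progesterone, a difference of -0.02 with an interval from -0.23 to 0.20. For both genes the progesterone arrays lay on either side of the oil values.

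Tagln, which encodes the actin-binding protein SM22 alpha, was at 13.26 on all 3 oil arrays and at 12.96, 13.24 and 12.97 with progesterone. The progesterone arrays stood at -0.30, -0.02 and -0.29 relative to their oil counterparts, so all were lower but replicate 2 only slightly. The log2 difference was -0.20 ± 0.104 (SE, n = 3 per group), or 1.15-fold, with a limma adjusted p of 0.282, and its lowest value over the 16 alternatives was 0.132. Des encodes desmin, the intermediate filament of muscle. It was at 11.37, 11.17 and 11.13 with oil and 11.29, 11.34 and 11.32 with progesterone, a difference of 0.09 with an interval from -0.13 to 0.32. Its dimmer probe set differed by 0.31, with an interval from -0.23 to 0.85.

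Myocd, the coactivator of these genes, was at 8.25, 8.34 and 7.68 with oil and at 8.17, 8.17 and 7.91 with progesterone. Replicate 3 was the lowest array in both groups. The log2 difference was -0.01, with an interval from -0.44 to 0.43, and the other probe set differed by 0.14.

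Within the progesterone group the genes varied together. All 7 contractile and cytoskeletal genes were highest on progesterone replicate 2, and over all 10 genes 8 were highest there, counting Oxtr, beside 26.1% of all genes measured. Gja1 was highest on replicate 3, and Myocd was level on replicates 1 and 2. Relative to their own group means, the 7 genes averaged -0.14, 0.20 and -0.07 on progesterone replicates 1 to 3, and between -0.02 and 0.02 on the oil arrays. The gap between progesterone replicate 2 and the mean of the other 2 progesterone arrays was largest for Actg2 (0.86), followed by Oxtr (0.62) and Myh11 (0.47), and was 0.04 for Des. The summed neutrophil markers were high on progesterone replicates 2 and 3, through S100a8 and S100a9. The other neutrophil markers, Camp, Ngp, Mpo and Elane, were highest on progesterone replicate 2. Their values were 7.88, 9.05, 5.94 and 4.21 there, and 4.69, 4.09, 3.87 and 3.57 on progesterone replicate 3. The summed smooth muscle markers outside the 10 genes were 14.84, 15.02 and 14.75 on progesterone replicates 1 to 3, so they too were highest on replicate 2. Of these markers, Synpo2 and Cald1 were not highest there. Among progesterone arrays the summed epithelial markers were lowest on replicate 2 (13.41). The summed stromal markers were 15.03, 15.45 and 15.35 and the summed adipocyte markers 8.06, 9.07 and 6.91 on replicates 1 to 3, both highest on replicate 2. Their part in these values was not tested.

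**Figure D3:**
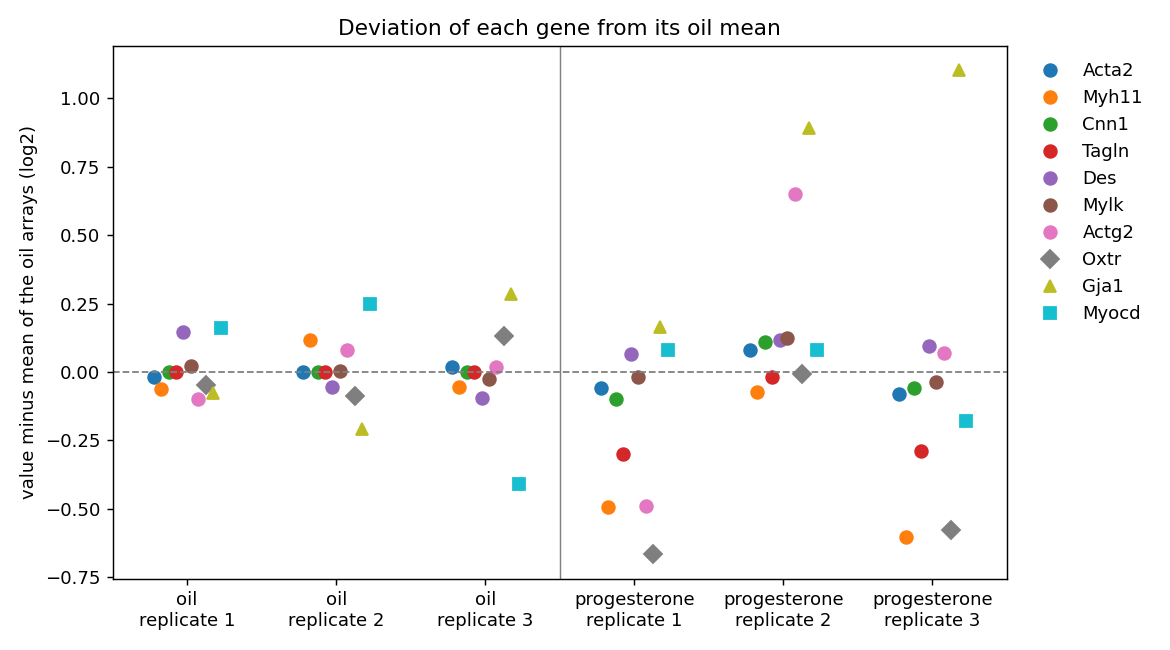
Value of each of the 10 genes on each array minus its mean over the oil arrays, in log2 units (circles, contractile and cytoskeletal genes; diamond, Oxtr; triangle, Gja1; square, Myocd). On progesterone replicates 1 and 3 Oxtr, Myh11 and Tagln lie below 0, and on replicate 2 they lie near 0 while Gja1 and Actg2 lie above it.

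The profiles most like these were found over 9086 other genes with a mean above the median, as the root mean square difference of centred log2 values over the 6 arrays. Closest to Oxtr were Fgl2 (0.0743), Ogn (0.085) and Natd1 (0.0877), where the median gene stood at 0.341. Closest to Gja1 were Myc (0.118), Ppp1r14b (0.137) and Sulf2 (0.141), with a median of 0.524. Of these, Sulf2, a sulfatase that edits heparan sulfate, passed the test (log2 difference 0.80, limma adjusted p = 0.0243), and Myc had a log2 difference of 0.70 (adjusted p = 0.0571). The search used the same arrays of both groups, so differences near that of Gja1 follow from it and are no separate evidence. Closest to the average of the 7 structural genes were Vamp5 (0.0222), Nfyb (0.0351) and Golim4 (0.0376), with a median of 0.207. Among the 7 genes themselves, Cnn1 was nearest to that average (0.0469) and Actg2 farthest from it (0.248).

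Other genes of contraction were taken from 7 lists that hold 179 measured genes outside the 10. Of these 7 were higher, 11 lower and 161 did not pass, or 10.1% called beside 11.7% of all genes. The lists' median log2 differences lay between -0.13 and 0.00, beside -0.02 over all genes. Centring each array on its median gave 8 higher and 6 lower, and moved the median of all genes from -0.02 to 0.03. Blocking on the replicate number gave 10 higher and 18 lower, in a fit where 16.1% of all genes passed. The blocked counts of single lists below come from that same fit and stand beside the same share. An unmoderated linear model gave 4 higher and 2 lower. Among the genes named below it called Cnn3, Ednrb, Atp2a2 and Smad3. The count of lower genes fell to 1 without oil replicate 1, oil replicate 2 or progesterone replicate 3, to 4 without progesterone replicate 2 and to 7 without oil replicate 3 or progesterone replicate 1. That of higher genes was 4 without oil replicate 2. The calls of single genes below are given with the number of the 6 fits with 1 array omitted in which they were still made.

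Of 36 contractile and cytoskeletal partners, 1 was higher, 1 lower and 34 did not pass. With the replicate block 3 were lower, as Vim (vimentin) and Hspb6, a small heat shock protein, then joined Pgm5 (adjusted p = 0.0355 and 0.0257). Cnn3, the acidic calponin found in many cell types, rose from 12.48 to 13.02 (log2 difference 0.54 ± 0.0886 SE, limma adjusted p = 0.012), and its other 5 probe sets also passed in that direction. Cnn3 and Cnn1 belong to one family, and the interval of Cnn3, 0.33 to 0.75, lay above that of Cnn1. The Cnn3 call was still made in 5 of 6 fits, all but that omitting oil replicate 2 (adjusted p = 0.0589). Pgm5, a component of muscle adhesion sites, fell from 10.41 to 9.77 (limma adjusted p = 0.0374), a call still made in 1 of 6. Others did not pass: the light chain gene Myl9 was at 12.72 and 12.43, caldesmon (Cald1) at 12.56 and 12.34, and smoothelin (Smtn) at 10.21 and 9.98 with oil and progesterone.

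Among 18 receptors and ligands of contraction, 2 passed as higher and 1 as lower, while 15 did not pass. Ptger3, a prostaglandin E2 receptor, was at 7.29, 7.21 and 7.25 with oil and 8.51, 8.99 and 9.28 with progesterone, 3.2-fold higher (limma adjusted p = 0.00386). Ednrb, the type B receptor for endothelins, was at 6.97, 7.07 and 7.08 with oil and 8.28, 8.37 and 8.66 with progesterone, 2.63-fold higher (limma adjusted p = 0.00173). For both receptors the progesterone arrays stood above the oil arrays by more than a unit. Both calls were still made in 6 of 6 fits, and of their other probe sets 0 of 1 for Ptger3 and 1 of 2 for Ednrb passed. With the mean of probe sets the log2 differences were 0.84 for Ptger3 in place of 1.68 and 0.85 for Ednrb in place of 1.40, and both passed. In the unmoderated model Ptger3 did not pass (adjusted p = 0.0511). Agtr1a, an angiotensin II receptor, fell from 8.58 to 7.33, or 2.39-fold (limma adjusted p = 0.0196), a call still made in 3 of 6. Ptgfr, the receptor for prostaglandin F2 alpha, did not pass at 6.99 with oil and 6.73 with progesterone (interval -0.62 to 0.11), and Oxt, which encodes oxytocin, was at 7.06 and 7.08.

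Of 23 relaxation and cyclic nucleotide genes, 1 was lower and 22 did not pass. With the replicate block 3 were lower, as Npr2, a natriuretic peptide receptor, and Mrvi1, a target of cyclic GMP-dependent kinase, then joined Npr3 (adjusted p = 0.0406 and 0.0467). Npr3, the clearance receptor for natriuretic peptides, fell from 8.16 to 7.57 (limma adjusted p = 0.0451), a call still made in 0 of 6 and ended by median centring (adjusted p = 0.0531), by the offset of 32 (adjusted p = 0.0531) and by the mean of probe sets (adjusted p = 0.179). Of 32 calcium and membrane potential genes, 1 was higher, 2 were lower and 29 did not pass. Under the replicate block the counts became 3 and 3, as the IP3 receptor gene Itpr2 and the sodium leak channel gene Nalcn (higher) and the potassium channel gene Kcnj8 (lower) were added. Atp2a2, the calcium pump of the sarcoplasmic reticulum, rose from 11.37 to 11.78 (limma adjusted p = 0.0298), a call still made in 0 of 6 and by none of its other 5 probe sets (0.23 with the mean of probe sets, adjusted p = 0.177). Cacna2d1, an auxiliary subunit of voltage-gated calcium channels, fell from 9.54 to 9.06 (limma adjusted p = 0.0206), but 0 of its other 4 probe sets passed and the mean of probe sets gave -0.25 (adjusted p = 0.176). Abcc9, the sulfonylurea receptor subunit of vascular potassium channels, fell from 11.16 to 10.67 (limma adjusted p = 0.0281, and 0.0513 with median centring). Of the 2 other Abcc9 probe sets 1 passed as lower, and the mean of probe sets gave -0.49 (limma adjusted p = 0.0131). The calls of Cacna2d1 and Abcc9 were still made in 2 and 1 of 6 fits. Abcc9 is also one of 8 markers of the mural cells of vessels, of which it alone passed in the main fit. Kcnj8, lower with the replicate block (limma adjusted p = 0.014), is another of the 8. The summed level of these 8 markers was 13.20 to 13.39 with oil and 12.99 to 13.06 with progesterone, a sum that includes Abcc9 and Kcnj8 themselves. Of the others, Rgs5, Notch3, Pdgfrb and Cspg4 differed by -0.14, -0.17, -0.23 and -0.13. Higd1b and Ndufa4l2 differed by 0.18 and 0.15. The part of these markers, or of the endothelial markers that were also lower, in the value of Abcc9 was not tested.

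Of 24 transcription factors of smooth muscle, 2 were higher, 3 lower and 19 did not pass. Blocking on the replicate number raised these counts to 3 and 4. The added genes were Heyl, at 0.64 (limma adjusted p = 0.0562, and 0.0146 with the block), and Tead1, at -0.37 (0.0542 and 0.0401). Hopx, a homeodomain protein that acts without binding DNA, was at 8.63, 8.65 and 8.25 with oil and 11.03, 10.14 and 10.28 with progesterone, 3.93-fold higher (limma adjusted p = 0.00512), and still called in 6 of 6 fits. Srf, the serum response factor itself, rose from 9.45 to 10.10 (log2 difference 0.65 ± 0.137 SE, limma adjusted p = 0.0267). The Srf call was still made in 1 of 6 fits. Its other probe set did not pass, and the mean of probe sets did (0.44, limma adjusted p = 0.0231). Foxo4 and Smad3 fell by 0.66 and 0.44 on the log2 scale (limma adjusted p = 0.0328 and 0.0212), each still called in 2 of 6. None of the other probe sets passed, 1 for Foxo4 and 2 for Smad3. With the mean of probe sets Foxo4 was at -0.48 (limma adjusted p = 0.0432) and Smad3 at -0.15 (adjusted p = 0.299). Zeb2, named because it was the fifth to pass, fell by 0.42 (limma adjusted p = 0.0483), a call still made in 0 of 6. Of 16 connexins and pannexins with a junction scaffold among them, 1 was lower and 15 did not pass. The 1 was Tjp1, the scaffold ZO-1, which fell from 10.89 to 10.51 (limma adjusted p = 0.0458), a call still made in 1 of 6. It ended with median centring (adjusted p = 0.0781) and with the replicate block (adjusted p = 0.0567), under which 2 other connexin genes, Gjb2 and Gja3, passed as lower. Gjb2, a connexin of epithelia, was named after its values were seen: it was at 6.43, 6.80 and 8.15 with oil and 5.35, 5.09 and 6.88 with progesterone, a log2 difference of -1.35 with an interval from -2.71 to 0.01. Replicate 3 was the highest array in both groups. Between arrays of the same number the differences were -1.08, -1.71 and -1.27, lower in 3 of 3, and with the replicate block Gjb2 passed (limma adjusted p = 0.00376, interval -1.69 to -1.02). Gja3 was at -0.49 (adjusted p = 0.0559, and 0.0241 with the block).

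**Figure D4:**
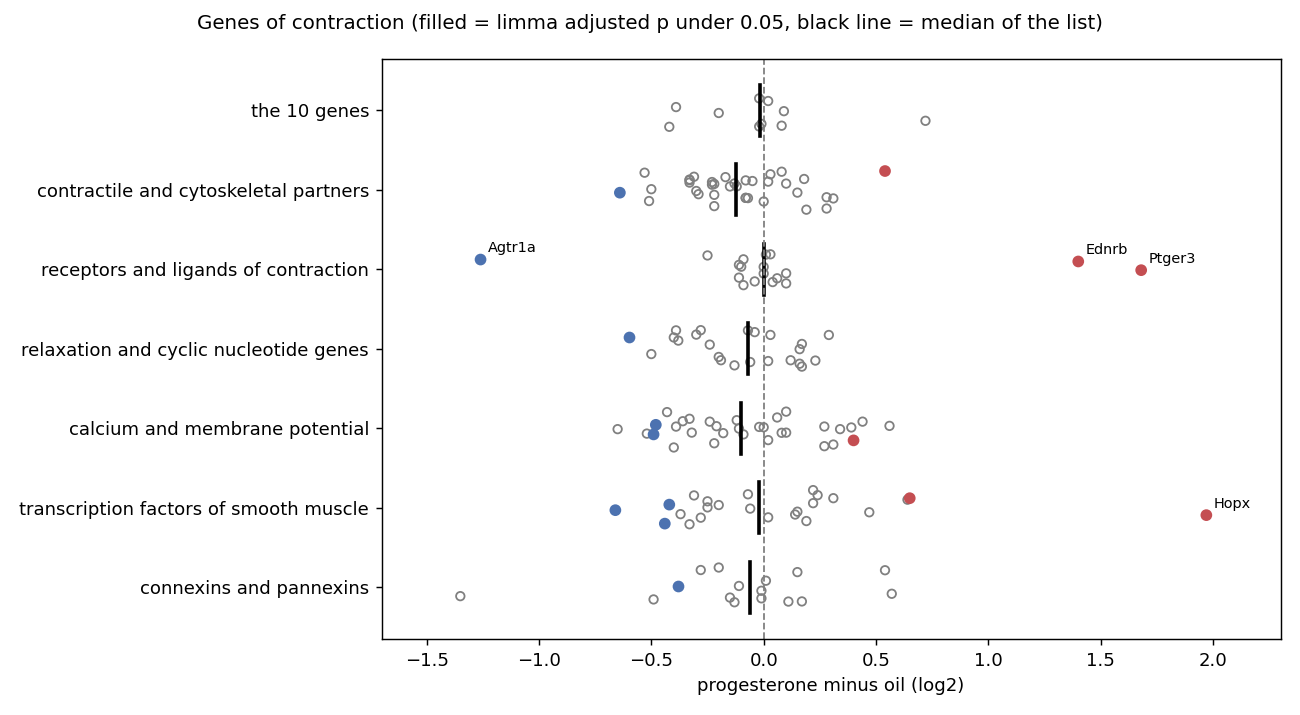
Difference of progesterone minus oil on the log2 scale (horizontal axis) for the 10 genes and for the measured genes of 6 of the 7 lists (one point per gene; filled, limma adjusted p under 0.05; black line, median). None of the 10 genes is filled, and the medians of these lists lie between -0.13 and 0.00.

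The skeletal actin gene Acta1, a relative of Acta2 and Actg2, did pass and was named because it led a marker list. It was at 9.38, 8.80 and 9.25 with oil and at 10.27, 11.31 and 10.58 with progesterone, 2.98-fold higher without overlap (log2 difference 1.58 ± 0.277 SE, limma adjusted p = 0.0149). Like the smooth muscle genes it was highest on progesterone replicate 2. Omitting oil replicate 2 ended this call (limma adjusted p = 0.0651), and the interval of its difference, 0.93 to 2.23, lay above those of Acta2 and Actg2. Acta1 was the only one of 10 skeletal muscle markers to pass. Ckm, the creatine kinase of skeletal muscle, was between 4.62 and 5.10 on all 6 arrays, and the myosin heavy chains Myh1 and Myh4 were at or below the TrpnX controls throughout. Whether probes of Acta1 read other actin transcripts was not tested.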

How the data were processed

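Groups came from the sample titles. The authors deposited log2 values, to 2 decimals, for 45101 probe sets. Their processing notes name Partek 6.6 and RMA (per the submitters' processing notes). RMA summarises probes after background correction and quantile normalization, with settings not given in the sources used here. Array medians lay between 5.51 and 5.53. Single gene symbols came from the platform annotation (34945 probe sets, with 932 of several symbols and 9160 of none left out, and 64 controls). Of the 208 listed genes outside the 10, 29 were not matched by name and were not analysed here. The members of 1 of the 7 lists are counted in the totals but are not reported here.

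The comparison used limma 3.58.1 (R 4.3.3; lmFit, then eBayes; unfiltered, unblocked, two-sided), with Benjamini-Hochberg adjustment over all genes. The number of arrays limits precision. The procedure was tested on simulated data. The 10 genes, the lists, the markers and the alternatives were chosen with earlier results of these data known. From each list up to 4 genes past the threshold were named by size of change. Titles of both groups share replicate numbers. Deviations from the group means correlated at 0.523, 0.141 and 0.636 between same-numbered arrays over 18193 genes. Each was above 0.1, the minimum set for treating the numbers as pairs, and a fit blocked on the number is given beside the main one. What a shared number means is not stated in the labels, so the main fit has no block. For oil replicate 2 the strongest match was progesterone replicate 1 (0.322), not the array of the same number. Blocked values are given where they change a call or a count. The alternatives were quantile renormalization, centring on medians, an offset of 32, leaving out the lowest 25% or 50% of genes, the mean of probe sets, other forms of the linear model, the replicate block, arrays left out, an adjusted p under 0.01 and a minimum of 1.5-fold.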

Additional observations from a re-analysis of the deposited data

How the results depend on the processing

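Of the 10 genes, 0 passed under quantile renormalization, median centring, the offset, the filters on dim genes, the mean of probe sets, both other forms of the linear model, a threshold of 0.01, a minimum of 1.5-fold and the fit without both replicates 3. With the replicate block 1 was higher (Gja1). Without 1 array, 0 to 1 were higher and 0 to 2 lower. The block changed no other call among the 10. The filter on the lower 50% of genes left out Oxtr. Over the lists' 179 genes (7 higher, 11 lower), the lower count was 6 with median centring, 17 without the lowest 50% of genes, 18 with the replicate block, 3 without both replicates 3 and 6 at a minimum of 1.5-fold. The unmoderated linear model gave 4 higher and 2 lower, and an adjusted p under 0.01 gave 4 and 1. Without 1 array, 4 to 9 were higher and 1 to 7 lower, and fewer arrays alone lower the number of calls. Differences near 0 changed sign. Acta2 was 0.02 with median centring, 0.05 with the mean of probe sets and 0.02 without both replicates 3 (-0.07 to 0.01 without 1 array). Cnn1 was 0.03 with median centring and 0.01 without both replicates 3 (-0.08 to 0.02 without 1 array). Myocd was 0.04 with median centring and 0.06 with the mean of probe sets (-0.21 to 0.12 without 1 array). Without 1 array Mylk ran from -0.03 to 0.05 and Actg2 from -0.21 to 0.36. Oxtr, Gja1, Myh11, Tagln and Des kept their sign under all alternatives run. Apart from fewer samples or genes tested, the cause of these changes was not tested.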
